A study of Mus musculus with 18 samples.

Results

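The 10 genes described here encode the main heat shock proteins of the mouse cell: Hspa1a, Hspa1b, Hspa8, Hsph1, Dnajb1, Hsp90aa1, Hsp90ab1, Hspb1, Cryab and Hspd1. They were chosen by name, not by their values, and are 10 of the 19630 genes in the table, with the estimated counts of all transcripts of a gene added up. All 10 passed the filter on low counts. These proteins are known from the cytosol and nucleus, except for the product of Hspd1, HSP60, which folds proteins inside mitochondria and is kept in the list by its name.

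The study, by its title, asks how p53 in the surroundings of embryonic stem (ES) cells bears on pluripotency through fibronectin and its integrin receptors. Polyadenylated RNA was sequenced from 18 mouse libraries in 6 groups of 3. In 2 groups feeders, that is embryonic fibroblasts on which ES cells are grown, were sequenced alone, and were labelled p53-defective or control. In 2 groups ES cells and feeders were sequenced together, with p53-defective or control feeders. In the other two groups the RNA was labelled as that of ES cells: grown not on feeders but with ATN161, which blocks integrin α5β1, and after culture on control feeders that were removed. The labels give no strain, passage, dose or time, do not say how p53 was altered, and do not say how feeders were taken away. Nor do they say that the 3 replicates came from separate cultures, and a p-value below thus speaks of the spread among libraries, which may be technical.

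Heat shock proteins are chaperones that hold unfolded proteins, refold them or pass them on for degradation. HSP70 proteins bind short exposed stretches and work in cycles driven by ATP, with J-domain proteins delivering the client and HSP110 proteins releasing the nucleotide, and HSP90 then completes the folding of kinases and receptors. Small heat shock proteins keep aggregating proteins soluble without ATP. In stress the factor HSF1 binds repeats of the heat shock element in front of many of these genes, while some members are made at high level in unstressed cells, ES cells among them.

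Library totals were 15.12 to 19.83 M counts, and levels below are counts per M (CPM) after trimmed-mean (TMM) scaling unless TPM, the authors' value per transcript length, is named. In p53-defective feeders Trp53 had 326, 317 and 244 CPM, against 123, 124 and 112 CPM in control feeders, and its target genes Mdm2 and Cdkn1a differed by -1.42 and -1.35 on the log2 scale. The Trp53 mRNA was thus higher, not lower, in the feeders labelled p53-defective. In the co-cultures the order was the other way, with 158, 160 and 141 CPM on p53-defective feeders, against 289, 300 and 291 CPM on control feeders (log2 -0.94, adjusted p = 1.97e-09), where Mdm2 differed by -2.90 and Cdkn1a was not called at -0.16 (adjusted p = 0.205). The summed level of 12 ES cell markers was 6307 to 6571 CPM with ATN161, 4928 to 5083 CPM with feeders removed and below 3 CPM in both feeder groups, where Pou5f1 and Zfp42 were at 0. In the co-cultures it was 422 to 580 CPM on p53-defective feeders, against 3743 to 3890 CPM on control feeders. The libraries with feeders removed still held RNA of 12 fibroblast markers. Its sum was 3563 to 4066 CPM, against 6026 to 6391 CPM in ES cells on control feeders. Values of the co-culture on p53-defective feeders hang on the scaling: the median log2 difference of all genes to the co-culture on control feeders was -0.18 with TMM factors, -0.52 without them and -0.56 in TPM. Results below that turn with the scaling are named as such.

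For 6 of the 10 members the RefSeq table of promoter windows, each from 250 bases before to 50 bases after a transcript start on GRCm38.p6, held a sequence: Hspa1a, Hspa1b, Hsph1, Dnajb1, Hspb1 and Hspd1. The sequences of Hspa1a and Hspa1b are shown because both genes carry nearly the same upstream region but differed in their values. Those of Hspb1 and Hspd1 are shown for 2 separate and 3 overlapping matches to the motifs below, the latter in 1 unbroken run. Capitals mark GAANNTTC or TTCNNGAA on the strand of the gene, which is 2 units of a heat shock element. The windows are chr17:34972157-34972406 (minus strand) for Hspa1a, chr17:34959239-34959488 (minus strand) for Hspa1b, chr5:135887769-135887858 (plus strand) for Hspb1 and chr1:55088053-55088082 (minus strand) for Hspd1.
Hspa1a: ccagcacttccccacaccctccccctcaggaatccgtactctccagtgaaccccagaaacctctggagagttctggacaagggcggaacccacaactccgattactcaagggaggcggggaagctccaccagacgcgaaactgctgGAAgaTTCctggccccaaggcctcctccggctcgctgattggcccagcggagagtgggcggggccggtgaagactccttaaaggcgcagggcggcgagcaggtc
Hspa1b: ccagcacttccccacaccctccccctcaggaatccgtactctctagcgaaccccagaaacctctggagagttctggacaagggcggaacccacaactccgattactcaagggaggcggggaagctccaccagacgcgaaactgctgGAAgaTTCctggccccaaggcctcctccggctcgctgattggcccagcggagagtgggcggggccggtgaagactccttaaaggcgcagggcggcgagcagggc
Hspb1: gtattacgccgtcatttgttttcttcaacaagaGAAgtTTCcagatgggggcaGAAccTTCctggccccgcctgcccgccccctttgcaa
Hspd1: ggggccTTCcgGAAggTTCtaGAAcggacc

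The 250 bases before the start of Hspa1a and Hspa1b were identical at 247 positions, or 98.8%, and both held 1 match that began 104 bases before the start. The matches of Hspb1 began 117 and 97 bases before the start, and those of Hspd1 144, 139 and 134 bases before it, overlapping each other, in a stretch that lies in an annotated exon of another transcript. Hsph1 had a match 33 bases before its start and 2 after it. In Dnajb1 no match was found in either window. A match of 2 units was present in 15.1% of all 32851 windows and in windows of 5 of the 6 members. The longer run of 3 units, GAANNTTCNNGAA or TTCNNGAANNTTC, was present in 0.603% of all windows and in windows of 2 members, Hspd1 and Hsph1. On the other strand the shorter motifs read as themselves and the longer ones as each other.

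Per transcript length, Hspa8 and Hsp90ab1 had the highest levels of the members. The mean of Hspa8, the constitutive HSP70 also called HSC70, was between 1331 TPM in ES cells on p53-defective feeders and 4594 TPM with feeders removed. Hsp90ab1, the constitutive HSP90, ran from 1381 TPM in control feeders to 3264 TPM with ATN161. Hsp90aa1, Hspb1 and Hspd1 followed with group means of 390 to 2537, 137 to 1378 and 326 to 1108 TPM. The lowest were Hsph1 with 23.3 to 140 TPM, Dnajb1 with 25.1 to 50.9 TPM, Hspa1b with 5.88 to 59.4 TPM and Hspa1a with 2.53 to 26.2 TPM. Cryab had the widest range, with 13.5 TPM with ATN161 and 550 TPM in ES cells on p53-defective feeders. Added up, the 10 genes took 0.705 to 0.754% of TPM in p53-defective feeders and 0.496 to 0.520% in control feeders. They took 0.554 to 0.586% in ES cells on p53-defective feeders, 1.192 to 1.201% with ATN161, 1.21 to 1.25% with feeders removed and 0.955 to 0.982% in ES cells on control feeders.

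**Figure D1:**
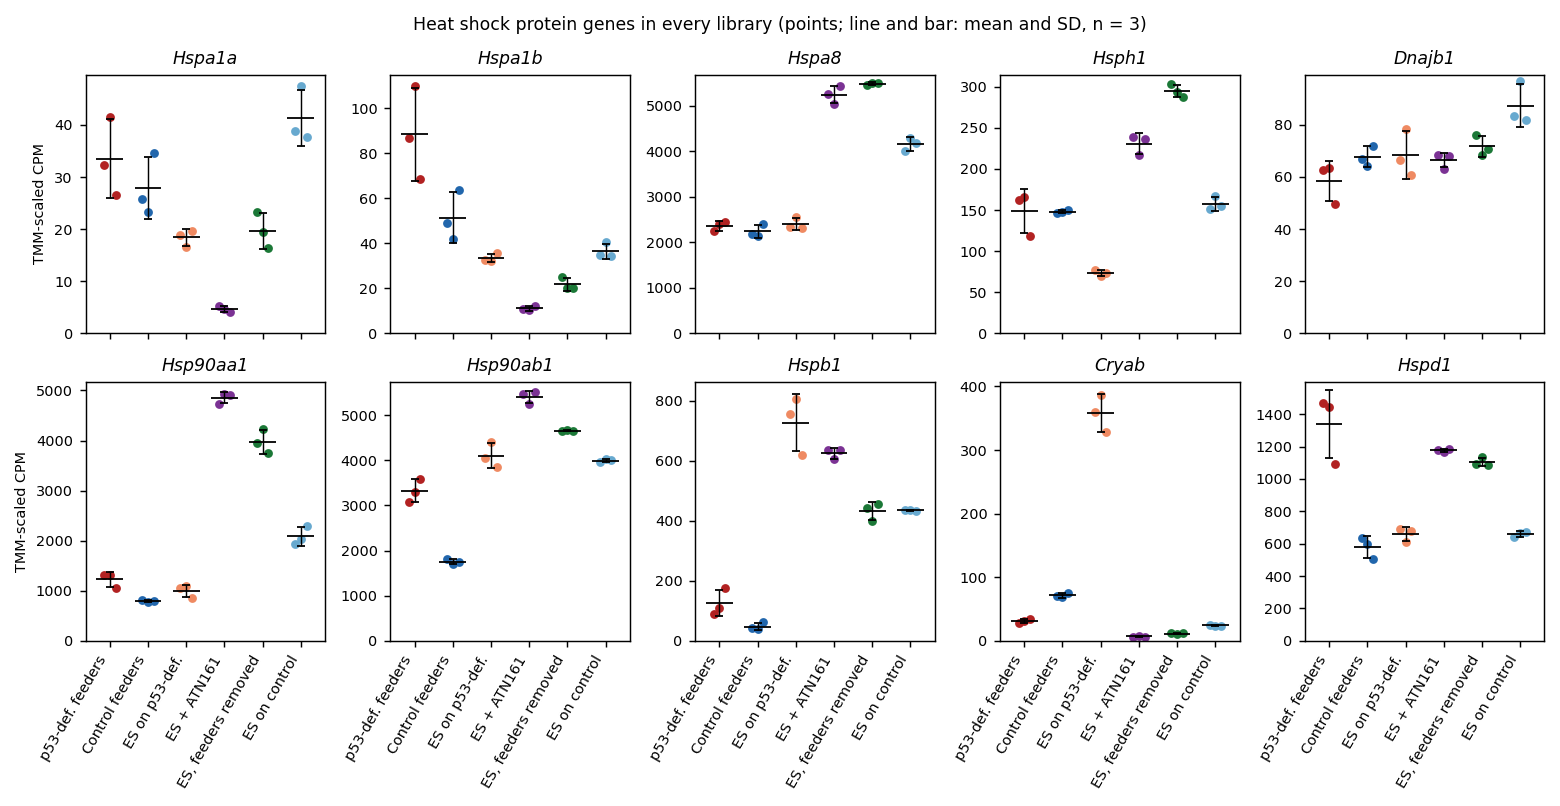
Level of each of the 10 genes (vertical axis, TMM-scaled CPM, from 0) in the 6 groups, with 1 point per library and a line and bar for the mean and SD (n = 3). Cryab stood highest in ES cells on p53-defective feeders (328 to 387 CPM), and Hspa1a lowest with ATN161 (4.16 to 5.26 CPM).

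The members did not move together in any comparison. A gene was called at an adjusted p below 0.05 (Benjamini-Hochberg over 15389 genes) in edgeR's quasi-likelihood test, and adjusted p-values are from that test unless another is named. In p53-defective against control feeders, both without ES cells, 5 members were higher and 1 was lower. Of all genes 74.3% were called, 35.9% higher and 38.4% lower. The 2 feeder groups also differed in fibroblast, macrophage and mesothelial markers, given below, whose part was not tested. In ES cells on p53-defective against control feeders 2 were higher and 5 lower. Here 83.4% of all genes were called, 36.6% higher and 46.7% lower. Without TMM factors 2 members were higher and 8 lower, and in TPM 1 was higher and 8 were lower, while the median of all genes shifted as given above. Both counts of called members, 6 and 7 of 10, are smaller shares than those over all genes. With ATN161 against ES cells on control feeders 6 members were higher and 4 lower, with 61.6% of genes called, 33.6% higher and 28.0% lower. With feeders removed against ES cells on control feeders 5 were higher and 4 lower, with 52.0% of genes called, 25.5% higher and 26.5% lower. These shares of members, 10 and 9 of 10, were above those of all genes. Between ATN161 and feeders removed 3 members were higher and 4 lower with ATN161, where 55.4% of genes were called, 28.6% higher and 26.8% lower. The 3 higher calls, of Hspb1, Hsp90aa1 and Hsp90ab1, were lost without replicate 1 or 3 of feeders removed, which left 4 called, and in TPM no member was higher and 6 were lower. The members' median log2 difference was 0.46 between the feeders, -0.23 between the co-cultures, 0.39 with ATN161 and 0.10 with feeders removed, against medians of -0.01, -0.18, 0.07 and -0.01 over all genes. The comparisons of co-culture, ATN161 and feeders removed to ES cells on control feeders share those 3 libraries.

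**Figure D2:**
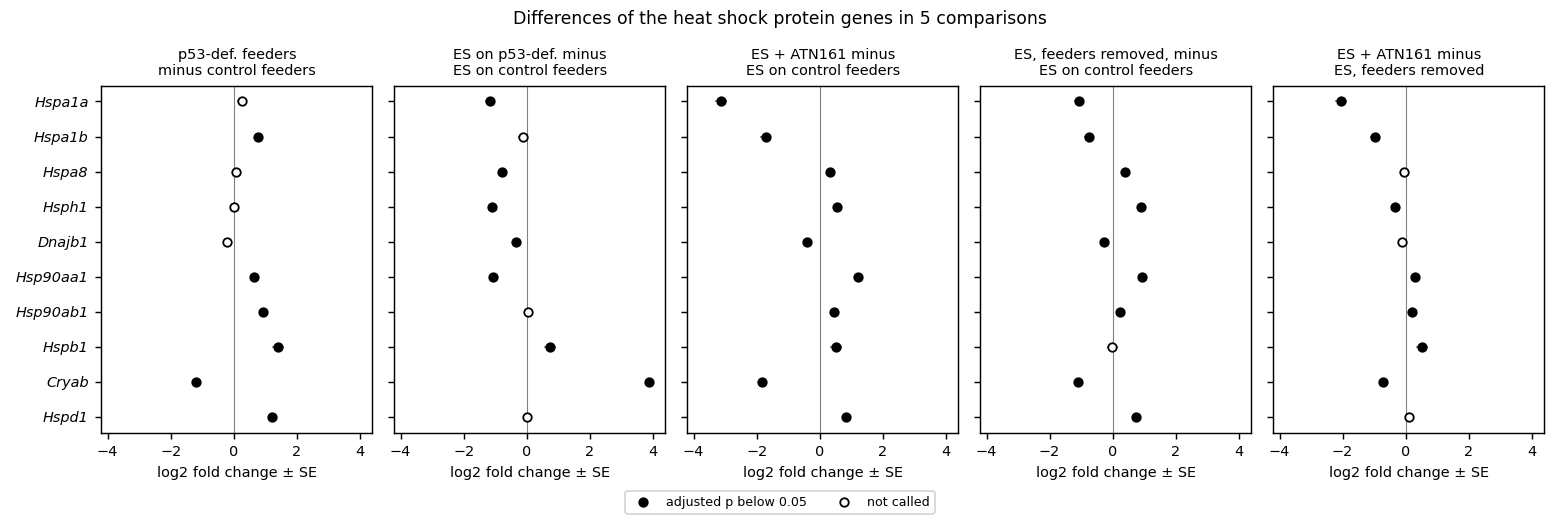
Log2 fold change (horizontal axis, bars ± SE, mostly smaller than the points) of each gene in 5 comparisons, 3 libraries a group, filled where the adjusted p was below 0.05. Cryab lies at -1.21 in feeders alone and at 3.88 in the co-cultures, and Hspa1a lies furthest to the left with ATN161 at -3.13.

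Hspa1a and Hspa1b (chr17:34969359-34972156 and chr17:34956429-34959238) are neighbouring genes without introns for the stress-inducible HSP70. Their open reading frames are 99.4% identical, so that the split of reads between the pair is uncertain and their sum is the firmer value. The sum was 119, 152 and 95.3 CPM in p53-defective feeders, against 74.5, 65.0 and 98.3 CPM in control feeders. It was 51.55, 48.99 and 55.37 CPM in ES cells on p53-defective feeders, against 73.6, 87.9 and 72.2 CPM in ES cells on control feeders. With ATN161 it was 15.97, 15.1 and 16.41 CPM, against 48.2, 39.5 and 36.6 CPM with feeders removed. The 3 libraries with ATN161 were below the other 15, and the feeder groups overlapped by 1 library on each side. The sum was 4.92-fold lower with ATN161 than in ES cells on control feeders (log2 -2.30 ± 0.17 SE, adjusted p = 4.42e-10) and also lower with feeders removed (-0.91 ± 0.15, adjusted p = 5.72e-05). It was lower with ATN161 than with feeders removed (-1.39 ± 0.17, adjusted p = 1.09e-06). In the co-cultures it was lower on p53-defective feeders (-0.58 ± 0.15, adjusted p = 0.00152), whereas in feeders alone it was higher with the p53-defective label (0.62 ± 0.15, adjusted p = 0.000843). In bulk RNA, fewer cells of a type and less RNA per cell cannot be told apart, which holds for each co-culture and for ES cells with feeder remnants.

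Taken singly, Hspa1a had 18.9, 16.7 and 19.7 CPM in ES cells on p53-defective feeders, against 38.8, 47.5 and 37.8 CPM in ES cells on control feeders. Hspa1b had 32.7, 32.3 and 35.7 CPM in ES cells on p53-defective feeders, against 34.8, 40.4 and 34.4 CPM in ES cells on control feeders. The groups were apart for Hspa1a and overlapped for Hspa1b, and the log2 differences were -1.17 ± 0.16 (adjusted p = 7.10e-07) and -0.12 ± 0.15 (adjusted p = 0.455). The value of Hspa1b was -0.46 without TMM factors and -0.74 in TPM, both past the threshold. In feeders alone it was Hspa1b that differed, with 86.8, 110.0 and 68.7 CPM in p53-defective feeders, against 48.8, 41.7 and 63.7 CPM in control feeders (0.78 ± 0.14, adjusted p = 5.06e-05). Hspa1a had 32.3, 41.6 and 26.6 CPM in p53-defective feeders, against 25.7, 23.3 and 34.6 CPM in control feeders, and was not called (0.27 ± 0.16, adjusted p = 0.128). It was called without replicate 3 of either group, at 0.45 without the control and 0.41 without the p53-defective library. With ATN161 Hspa1a had 5.26, 4.76 and 4.16 CPM, against 23.3, 19.4 and 16.4 CPM with feeders removed. It was 8.74-fold lower with ATN161 than in ES cells on control feeders (-3.13 ± 0.18, adjusted p = 5.82e-12), the largest fall of a member in any of the comparisons made. The order of groups for Hspa1a was ES cells on control feeders, p53-defective feeders and control feeders, whose neighbours overlapped, then feeders removed and ES cells on p53-defective feeders, which overlapped, and ATN161 apart from all. For Hspa1b the order was p53-defective feeders, control feeders, then both co-cultures, which overlapped, feeders removed and ATN161, with no other overlap between neighbours. These overlaps turned with the scaling. In TPM Hspa1a was apart between feeders removed (9.86 to 14.06 TPM) and ES cells on p53-defective feeders (6.02 to 8.70 TPM). For Hspa1b ES cells on p53-defective feeders (11.63 to 15.65 TPM) were then apart from those on control feeders (21.45 to 25.44 TPM). They overlapped with feeders removed (12.09 to 15.01 TPM).

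The share of Hspa1a in the summed TPM of the pair was 27.6% ± 0.377 in p53-defective feeders and 35.3% ± 0.686 in control feeders (SD, n = 3). It was 35.5% ± 1.31 in ES cells on p53-defective feeders, 30.1% ± 3.97 with ATN161, 47.5% ± 2.35 with feeders removed and 53.2% ± 0.918 in ES cells on control feeders. The 2 genes thus kept no fixed ratio although their upstream regions shown above differ at 3 of 250 positions, and how the counting divided shared reads was not tested. The sum of 12 immediate early genes, which respond to serum, stretch and handling, had the same order of group means as Hspa1a in the 4 groups with ES cells. It did not share the order of Hspa1b or of Hspa1a and Hspa1b added up. These had means of 33.55 and 51.97 CPM in ES cells on p53-defective feeders, against 21.75 and 41.43 CPM with feeders removed. Hspa1a itself overlapped between these 2 groups, at 18.42 and 19.68 CPM. The immediate early sum was 578 to 655 CPM in ES cells on p53-defective feeders, 491 to 508 CPM with ATN161, 2430 to 2709 CPM with feeders removed and 4424 to 4992 CPM in ES cells on control feeders. All 12 were lower with ATN161, 11 were lower with feeders removed, and 11 were lower on p53-defective feeders while 1 was higher, each against ES cells on control feeders. In feeders alone the order of the sum and of Hspa1a differed: the sum was 653 to 872 CPM with the p53-defective label and 841 to 885 CPM in controls, below feeders removed, where the mean of Hspa1a was lower than in either feeder group. None of the 12 was at 0 in a group, and their part in the result was not tested.

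Hspa8 (chr9:40801276-40805202), the HSP70 that cells make without stress, had 2335, 2556 and 2325 CPM in ES cells on p53-defective feeders, against 4000, 4293 and 4187 CPM in ES cells on control feeders. With ATN161 it had 5269, 5046 and 5428 CPM, against 5451, 5513 and 5493 CPM with feeders removed. In p53-defective feeders it had 2247, 2407 and 2448 CPM, against 2182, 2148 and 2399 CPM in control feeders. ATN161 and feeders removed were highest, ES cells on control feeders stood between, and the other 3 groups overlapped with each other. This turned with the scaling. In TPM ES cells on p53-defective feeders were lowest and apart from all, at 1292 to 1421 TPM, against 2093 to 2293 TPM in control feeders. Hspa8 was lower in ES cells on p53-defective than on control feeders (-0.79 ± 0.07, adjusted p = 6.27e-10), in each alternative between -1.46 and -0.67. It was higher with feeders removed (0.40 ± 0.07, adjusted p = 6.53e-05) and with ATN161 (0.34 ± 0.07, adjusted p = 0.000298) than in ES cells on control feeders, though in TPM the value with ATN161 was 0.09 and missed the threshold. Between the feeders it was not called (0.08 ± 0.07, adjusted p = 0.326). It was called there at 0.15 without TMM factors and at 0.18 without replicate 1 of p53-defective feeders. Of the summed TPM of Hspa1a, Hspa1b and Hspa8, Hspa1a and Hspa1b together made up 3.58% ± 0.806 in p53-defective feeders and 2.47% ± 0.371 in control feeders, with overlap (SD, n = 3). They made up 1.54% ± 0.164 in ES cells on p53-defective feeders, 0.217% ± 0.00150 with ATN161, 0.541% ± 0.0816 with feeders removed and 1.33% ± 0.115 in ES cells on control feeders. Hspa8 made up the rest of this sum, which leaves out other HSP70 genes. The gene holds 3 small nucleolar RNA genes in its introns.

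Hsph1 (chr5:149616843-149636498) encodes an HSP110 that exchanges the nucleotide of HSP70. It had 77.7, 70.3 and 73.3 CPM in ES cells on p53-defective feeders, against 151, 167 and 155 CPM in ES cells on control feeders. ES cells with ATN161 had 239, 217 and 236 CPM, against 303, 293 and 288 CPM with feeders removed. In p53-defective feeders it had 162, 166 and 118 CPM, against 146, 147 and 150 CPM in control feeders. ES cells on p53-defective feeders were the lowest group and feeders removed the highest, each apart from all others, while the p53-defective feeders overlapped with control feeders and with ES cells on control feeders. The differences to ES cells on control feeders were -1.09 ± 0.09 on p53-defective feeders (adjusted p = 2.93e-10), 0.55 ± 0.09 with ATN161 (adjusted p = 2.00e-05) and 0.90 ± 0.09 with feeders removed (adjusted p = 5.32e-08). Hsph1 was lower with ATN161 than with feeders removed (-0.35 ± 0.09, adjusted p = 0.00234). Between the feeders it was not called (0.01 ± 0.09, adjusted p = 0.943), but was at 0.15 without replicate 3 of p53-defective feeders.

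Dnajb1 (chr8:83608175-83612653), the J-domain partner that brings clients to HSP70, had the narrowest range of group means of the 10. It had 66.3, 78.4 and 60.5 CPM in ES cells on p53-defective feeders, against 83.2, 96.9 and 81.8 CPM in ES cells on control feeders. With ATN161 its level was 68.2, 63.2 and 67.9 CPM, against 76.2, 68.4 and 70.7 CPM with feeders removed. In p53-defective feeders it had 62.5, 63.3 and 49.6 CPM, against 66.9, 64.1 and 72.0 CPM in control feeders. ES cells on control feeders lay above every library of the other 5 groups, whose neighbours in the order of means all overlapped. In TPM, however, ES cells on p53-defective feeders were lowest and apart from all, at 24.45 to 26.09 TPM. Dnajb1 was lower than in ES cells on control feeders with p53-defective feeders (-0.35 ± 0.10, adjusted p = 0.00222), with ATN161 (-0.39 ± 0.10, adjusted p = 0.00136) and with feeders removed (-0.28 ± 0.10, adjusted p = 0.0187). The first of these calls was lost, at -0.17, without replicate 2 of ES cells on control feeders or replicate 3 of ES cells on p53-defective feeders, and the last, at -0.25, without that same replicate 2. Between the feeders it was not called (-0.21 ± 0.10, adjusted p = 0.0608), though the 2 groups did not overlap, and it was called at -0.25 in TPM.

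The HSP90 pair divided between conditions. Hsp90aa1 (chr12:110691036-110696395), the stress-inducible form, had 1048, 1093 and 863 CPM in ES cells on p53-defective feeders, against 1925, 2030 and 2298 CPM in ES cells on control feeders. In libraries with ATN161 there were 4735, 4930 and 4899 CPM, against 3949, 4230 and 3741 CPM with feeders removed. In p53-defective feeders it had 1321, 1307 and 1061 CPM, against 809, 767 and 794 CPM in control feeders. From high to low the order was ATN161, feeders removed, ES cells on control feeders, p53-defective feeders, ES cells on p53-defective feeders and control feeders, and only p53-defective feeders and ES cells on them overlapped. This turned with the scaling. In TPM ES cells on p53-defective feeders were lowest and apart from all, at 372.9 to 410.8 TPM, against 529.2 to 548.4 TPM in control feeders. In TPM only ATN161 and feeders removed overlapped. It was 2.08-fold lower in ES cells on p53-defective than on control feeders (-1.06 ± 0.10, adjusted p = 7.24e-10), and this held between -1.72 and -0.86 in each alternative. It was 2.33-fold higher with ATN161 (1.22 ± 0.10, adjusted p = 3.56e-10) and 1.91-fold higher with feeders removed (0.93 ± 0.10, adjusted p = 6.41e-08) than in ES cells on control feeders. In feeders it was higher with the p53-defective label (0.64 ± 0.10, adjusted p = 2.53e-06).

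Hsp90ab1 (chr17:45567778-45573261) had 4057, 4397 and 3847 CPM in ES cells on p53-defective feeders, against 3970, 4019 and 3996 CPM in ES cells on control feeders. In p53-defective feeders it had 3084, 3298 and 3590 CPM, against 1812, 1700 and 1753 CPM in control feeders. With ATN161 it had 5461, 5253 and 5510 CPM, against 4654, 4682 and 4645 CPM with feeders removed. ATN161 and feeders removed were highest, the co-cultures overlapped, and control feeders were lowest by a wide gap. In TPM the co-cultures were apart, at 1798 to 1921 TPM on p53-defective and 2829 to 2887 TPM on control feeders. The gene was 1.89-fold higher in p53-defective than in control feeders (0.92 ± 0.07, adjusted p = 8.17e-11). Between the co-cultures it was not called (0.04 ± 0.07, adjusted p = 0.629), but the value was -0.30 without TMM factors and -0.63 in TPM, both past the threshold. It was higher with ATN161 than in ES cells on control feeders (0.44 ± 0.07, adjusted p = 1.77e-05). With feeders removed the difference was 0.22 ± 0.07 (adjusted p = 0.0124), a call that was lost in 8 of 16 alternatives at 0.14 and above. Hsp90aa1 made up 17.4% ± 1.04 of the TPM of the pair in ES cells on p53-defective feeders, 43.7% ± 0.999 with ATN161, 42.4% ± 1.37 with feeders removed and 31.1% ± 1.91 in ES cells on control feeders (SD, n = 3). In feeders alone it made up 24.3% ± 3.50 with the p53-defective label and 28.04% ± 0.156 in controls, where the 2 groups did not overlap. The open reading frames of the pair are 75.3% identical.

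**Figure D3:**
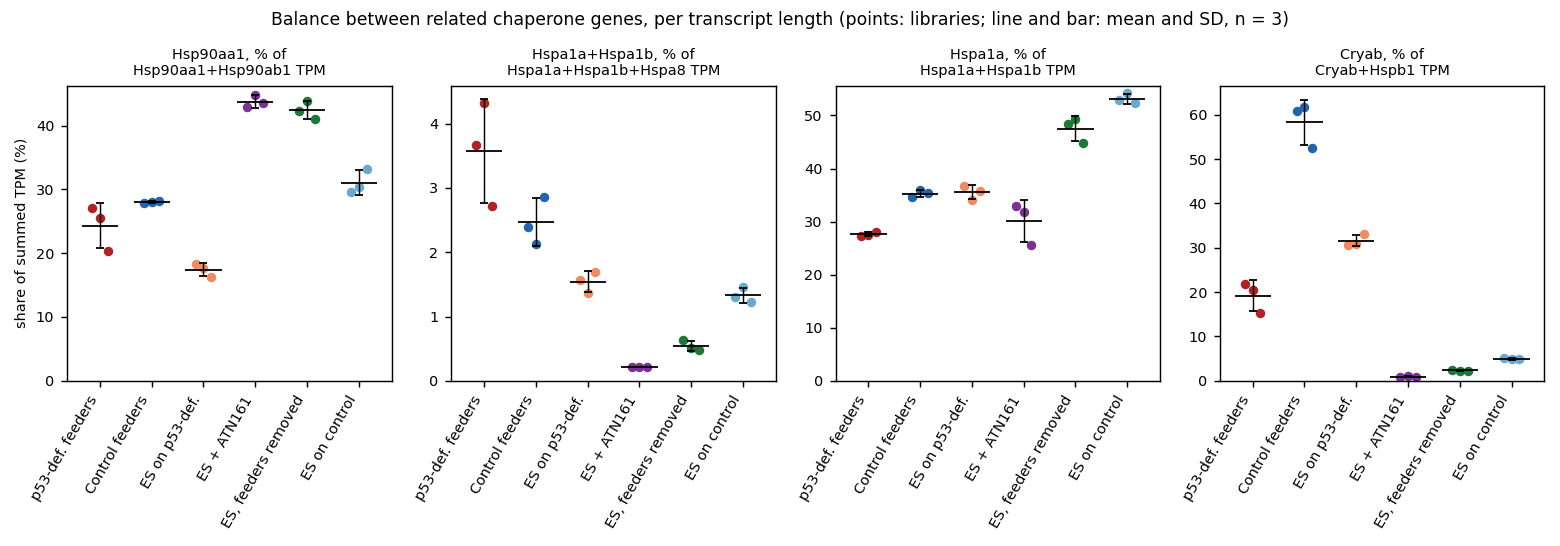
Share of one gene in the summed TPM of related members (vertical axis, %, from 0) for each library of the 6 groups, with the mean and SD (n = 3). The share of Hsp90aa1 in the HSP90 pair runs from 17.4% in ES cells on p53-defective feeders to 43.7% with ATN161, and that of Cryab in Cryab plus Hspb1 from 0.968% with ATN161 to 58.3% in control feeders.

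Cryab (chr9:50745951-50756636) encodes αB-crystallin, a small heat shock protein abundant in lens and muscle. It had 359, 387 and 328 CPM in ES cells on p53-defective feeders, against 25.4, 23.9 and 23.7 CPM in ES cells on control feeders. In feeders alone it had 27.2, 31.2 and 33.8 CPM with the p53-defective label, against 69.9, 68.5 and 75.8 CPM in control feeders. ES cells with ATN161 had 6.22, 7.50 and 6.75 CPM, against 11.5, 10.4 and 12.1 CPM with feeders removed. No 2 groups overlapped. The co-culture on p53-defective feeders was 14.7-fold above that on control feeders (3.88 ± 0.09, adjusted p = 8.74e-20), with 3.19 to 4.04 over all alternatives, whereas p53-defective feeders alone were 2.32-fold below control feeders (-1.21 ± 0.09, adjusted p = 1.70e-11). It was lower with ATN161 (-1.83 ± 0.10, adjusted p = 1.24e-12) and with feeders removed (-1.10 ± 0.10, adjusted p = 9.29e-09) than in ES cells on control feeders, and lower with ATN161 than with feeders removed (-0.73 ± 0.11, adjusted p = 1.07e-05).

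Genes of other cell types differed between the same groups as Cryab. The sum of 8 smooth muscle and contractile genes came to 5882 to 8305 CPM in ES cells on p53-defective feeders, against 278 to 323 CPM in ES cells on control feeders, with 6 higher and none at 0. In feeders alone that sum was 890 to 1739 CPM with the p53-defective label and 1137 to 1222 CPM in controls. For 10 mesothelial markers the sum was 2040 to 2124 CPM in ES cells on p53-defective feeders, against 44.8 to 48.3 CPM in ES cells on control feeders, with all 10 higher. Their sum was also high in p53-defective feeders alone, at 1547 to 2375 CPM, where Cryab was low, against 58.1 to 66.8 CPM in control feeders. The 12 fibroblast markers summed to 15020 to 22620 CPM in ES cells on p53-defective feeders, against 6026 to 6391 CPM in ES cells on control feeders, with 6 higher, 3 lower and none at 0. In feeders alone that sum was 4918 to 7479 CPM with the p53-defective label and 31250 to 38360 CPM in controls, with all 12 lower. For 12 skeletal muscle genes the sum was 86.1 to 109 CPM in ES cells on p53-defective feeders, against 67.9 to 69.9 CPM in ES cells on control feeders. Of the 7 that passed the filter 3 were higher and 3 lower. Myod1, Myog and Myf5 were at 0 on p53-defective feeders, and Myf5 and Myl1 were at 0 on control feeders. The part of these cell types in the result was not tested. Cryab overlaps 2310030G06Rik and Hspb2, and whether the libraries kept the strand is not stated, so reads of the overlap cannot be told apart. Hspb2 had 35.1, 41.1 and 29.2 CPM in ES cells on p53-defective feeders, against 0.589, 0.762 and 0.778 CPM in ES cells on control feeders. The level of 2310030G06Rik was 7.39 ± 0.991 CPM in ES cells on p53-defective feeders and 3.65 ± 0.262 CPM in ES cells on control feeders (SD, n = 3).

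Hspb1 (chr5:135887919-135889563), the small heat shock protein called HSP25 in the mouse, was higher in every library that held ES cells than in any of feeders alone. It had 756, 806 and 621 CPM in ES cells on p53-defective feeders, against 436, 436 and 434 CPM in ES cells on control feeders. In feeders alone it had 90.4, 110.4 and 175 CPM with the p53-defective label, against 41.1, 38.9 and 62.3 CPM in control feeders. With ATN161 its level was 635, 605 and 636 CPM, against 444, 399 and 457 CPM with feeders removed. Both feeder groups lay below all libraries with ES cells, ES cells on p53-defective feeders overlapped with ATN161, and feeders removed overlapped with ES cells on control feeders. Both of these overlaps turned with the scaling. In TPM the co-cultures overlapped, at 1137 to 1241 TPM on p53-defective and 1128 to 1149 TPM on control feeders. ATN161 lay above them (1364 to 1400 TPM) and feeders removed below (1038 to 1119 TPM). Hspb1 was higher in p53-defective than in control feeders (1.4 ± 0.20, adjusted p = 4.95e-06). In the co-cultures it was higher on p53-defective feeders (0.74 ± 0.19, adjusted p = 0.00137), but the value was 0.40 without TMM factors, and at 0.06 in TPM the call was lost (adjusted p = 0.746 with limma). With ATN161 it was higher than in ES cells on control feeders (0.52 ± 0.18, adjusted p = 0.0213), a call lost in 8 of 16 alternatives at 0.27 to 0.51, and with feeders removed it was not called (-0.01 ± 0.18, adjusted p = 0.978). ES cells with feeders removed had 9.14-fold more than control feeders (3.19 ± 0.21, adjusted p = 8.14e-11).

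Of the TPM of Cryab and Hspb1 together, Cryab made up 19.2% ± 3.41 in p53-defective feeders, 58.3% ± 5.09 in control feeders, 31.6% ± 1.28 in ES cells on p53-defective feeders and 4.95% ± 0.202 in ES cells on control feeders (SD, n = 3). It made up 0.968% ± 0.0872 with ATN161 and 2.33% ± 0.0160 with feeders removed. The balance of the 2 small heat shock proteins thus lay with Cryab in control feeders and with Hspb1 in the other 5 groups.

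Hspd1 (chr1:55077833-55088243) encodes HSP60 of mitochondria. In p53-defective feeders it had 1470, 1445 and 1095 CPM, against 633, 597 and 503 CPM in control feeders. In ES cells on p53-defective feeders it had 691, 607 and 681 CPM, against 642, 665 and 673 CPM in ES cells on control feeders. The level with ATN161 was 1178, 1169 and 1184 CPM, against 1095, 1135 and 1084 CPM with feeders removed. The feeders with the p53-defective label overlapped with ATN161 and with feeders removed. The co-cultures overlapped with each other, and those on p53-defective feeders also with control feeders. These overlaps turned with the scaling. In TPM the co-culture on p53-defective feeders was lowest and the p53-defective feeders alone were highest, each apart from all others. Their values were 269.5 to 369 and 927.5 to 1215 TPM. Hspd1 was 2.31-fold higher in p53-defective than in control feeders (1.21 ± 0.10, adjusted p = 1.21e-10), and higher in ES cells with ATN161 (0.83 ± 0.10, adjusted p = 1.48e-07) and with feeders removed (0.74 ± 0.10, adjusted p = 1.40e-06) than in ES cells on control feeders. Between the co-cultures it was not called (0.00 ± 0.10, adjusted p = 0.996), but the value was -0.34 without TMM factors and -0.67 in TPM, both past the threshold. Hspd1 overlaps Hspe1, the gene of its partner HSP10, which had 251, 215 and 212 CPM in p53-defective feeders, against 165, 170 and 164 CPM in control feeders. Reads of processed copies of Hspd1 elsewhere in the genome may be counted with it.

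Beside feeders alone, ES cells on control feeders had 6 members higher and 2 lower, with 84.2% of genes called, 44.3% higher and 39.9% lower. Hspd1 was not called there (0.19 ± 0.10, adjusted p = 0.0663), which held in only 4 of 16 alternatives. In the others it was called higher, at up to 0.33. ES cells with feeders removed had 6 higher and 3 lower than control feeders, with 85.9% of genes called, 45.1% higher and 40.8% lower. In ES cells on p53-defective feeders 4 were higher and 5 lower than in those feeders alone, with 79.7% of genes called, 46.7% higher and 33.0% lower. Of these members Dnajb1 and Hsp90ab1, both higher, turned to -0.51 and -0.45 in TPM. Hsp90aa1, at -0.30, was no longer called without replicate 3 of the co-culture or replicate 1 or 2 of the feeders, at -0.08, -0.13 and -0.14. Over all alternatives its value ran from -1.05 to -0.08. In TPM its groups did not overlap, with 372.9 to 410.8 TPM in the co-culture and 717.2 to 870.5 TPM in those feeders alone. Each co-culture was then set beside its nearest measured sources, its feeders alone and ES cells with control feeders removed. No group held ES cells taken from p53-defective feeders. On p53-defective feeders Cryab lay 11.7-fold and Hspb1 1.68-fold above the higher source, with no overlap, while 24.0% of all genes lay above both sources. Both genes also lay above both sources without TMM factors and in TPM, where 17.5% and 9.25% of genes did so. For Hspb1 the gap was small in TPM, with 1137 to 1241 TPM in the co-culture, against 1038 to 1119 TPM with feeders removed. Hsph1 and Hspd1 lay below both sources under all 3 scalings, as did 20.2% of all genes with TMM factors, 26.6% without and 36.0% in TPM. Hspa8 and Hsp90aa1 joined them without TMM factors, and in TPM Hspa1a, Dnajb1 and Hsp90ab1 did so as well, which made 7 members. On control feeders Hspa1a and Dnajb1 lay above both sources and no member below both, with 11.6% of all genes above and 10.3% below. Without TMM factors the members above both were Hspa1a, Hspb1 and Dnajb1, with 16.1% of all genes, and in TPM they were Hspb1 and Dnajb1, with 12.5%, again with no member below both.

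**Figure D4:**
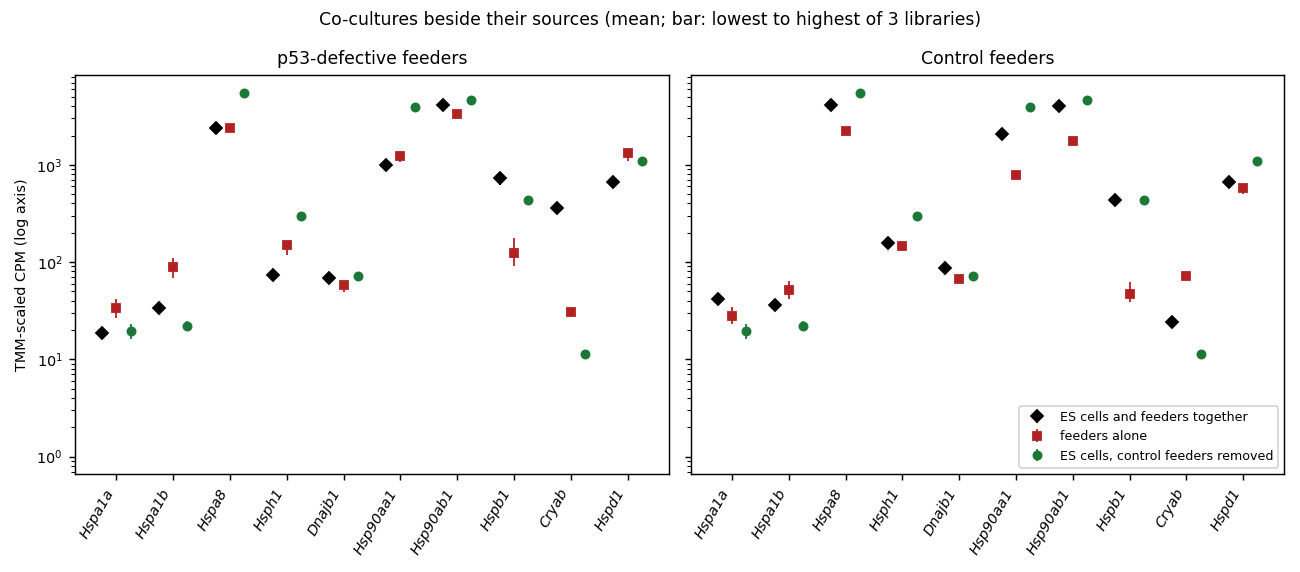
Level of each gene (vertical axis, TMM-scaled CPM, log axis) in the co-culture, in its feeders alone and in ES cells with control feeders removed, for p53-defective feeders (left) and control feeders (right), as the mean with a bar for the lowest to highest of 3 libraries. On p53-defective feeders Cryab lies 11.7-fold above its higher source and Hsph1 and Hspd1 lie below both.

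The effect of the p53 label itself was compared between co-culture and feeders alone by an interaction term. The effect was lower in the co-culture for 8 members and higher for 1, Cryab, with 73.6% of all genes called, 38.8% with a higher and 34.8% with a lower effect. For Cryab the difference of effects was 5.09 ± 0.12 on the log2 scale (adjusted p = 4.01e-19). The next in size were Hsp90aa1 with -1.70 ± 0.14 (adjusted p = 1.23e-10) and Hspa1a with -1.43 ± 0.22 (adjusted p = 5.64e-06). Hsp90aa1 and the sum of Hspa1a and Hspa1b changed direction. Both were higher in p53-defective than in control feeders alone, and lower in the co-culture on p53-defective feeders than in that on control feeders. The call of Hspb1, at -0.66 ± 0.27, was lost in 9 of 22 alternatives, which left 7 members with a lower effect, and the value was -0.34 without replicate 3 of p53-defective feeders. Dnajb1 was not called at -0.14 ± 0.14 (adjusted p = 0.372), but was at -0.56 without TMM factors and at -0.74 in TPM. The median over all genes was 0.04 with TMM factors, -0.37 without and -0.44 in TPM. Markers of other cell types moved with this comparison: the effect was higher in the co-culture for all 12 fibroblast, all 8 smooth muscle and all 10 macrophage markers and for 6 of 10 mesothelial markers. Of the macrophage markers all 10 were lower in p53-defective than in control feeders. Between the co-cultures 2 of them were higher, 1 lower and 7 not called. Their sum was 21.3 to 21.8 CPM on p53-defective feeders, against 10.3 to 11.0 CPM on control feeders. The effect was lower for 11 of 12 immediate early genes and higher for 1. For ES cell markers it was lower for 3 of 12 and not called for the other 9, with feeders alone near 0. Their part in the members' values was not tested.

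Beyond the members, 78 of 80 genes of the heat shock and chaperone network, in 9 lists by role, passed the filter. In p53-defective against control feeders 45 were higher and 20 lower, with a median of 0.40 against -0.01 over all genes. Beside these values and those of the members, all 12 fibroblast markers were lower in p53-defective feeders, as given above, and so were all 10 macrophage markers, with a sum of 4.13 to 6.19 CPM in p53-defective feeders, where 6 were at 0, against 132.5 to 181.8 CPM in control feeders. Of 10 mesothelial markers 8 were higher and 2 lower, and the part of these markers was not tested. Of 8 subunits of the TRiC chaperonin, which folds actin and tubulin, 7 were higher and none lower, with Cct5 at 1.33 ± 0.07 (adjusted p = 1.25e-13). Of 9 mitochondrial chaperones and proteases 8 were higher and none lower, with Lonp1, a matrix protease, at 1.45 ± 0.07 (adjusted p = 4.65e-14) and Trap1, the mitochondrial HSP90, at 1.02 ± 0.06 (adjusted p = 2.21e-12). Of 14 HSP90 co-chaperones 9 were higher and 2 lower. Stip1, which links HSP70 to HSP90, averaged 521 ± 49.9 CPM in p53-defective feeders and 180 ± 5.48 CPM in control feeders (SD, n = 3), a difference of 1.54 ± 0.07 (adjusted p = 5.51e-15). Of 4 genes listed under heat shock factors 2 were higher and 2 lower. Hsf1 and Hsf2 were higher by 0.82 ± 0.07 and 1.07 ± 0.08 (adjusted p = 9.76e-10 and 2.01e-11), and Hsf4 and Hsbp1 were lower. Of 8 other known targets of HSF1 2 were higher and 5 lower. Other HSP70 and HSP110 genes had 5 of 8 higher and 2 lower. Among 12 J-domain proteins 5 were higher and 5 lower, and among 9 genes of HSP70 nucleotide exchange 4 were higher and 3 lower. Of 6 other small heat shock proteins 3 were higher and 1 lower, Hspb7 at -6.09 ± 0.45 (adjusted p = 3.26e-11).

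In ES cells on p53-defective against control feeders 39 of the 78 were higher and 29 lower, a balance that turned with the scaling to 27 and 39 without TMM factors and to 16 and 48 in TPM. HSP90 co-chaperones were mostly lower, with 4 of 14 higher and 10 lower, and with 1 higher and 12 lower in TPM. Fkbp5, an HSP90 partner of steroid receptors, averaged 58.4 ± 3.23 CPM on p53-defective and 129 ± 2.53 CPM on control feeders (-1.14 ± 0.07, adjusted p = 2.84e-13). Of 6 other small heat shock proteins 5 were higher, also without TMM factors and in TPM, where 1 was lower. Hspb6, which occurs in smooth and striated muscle, averaged 33.3 ± 1.09 CPM on p53-defective and 3.32 ± 0.424 CPM on control feeders (3.33 ± 0.13, adjusted p = 5.39e-16). Hspb2, whose reads may mix with those of Cryab, differed by 5.61 ± 0.23 (adjusted p = 7.28e-16). Serpinh1, the collagen chaperone HSP47, averaged 1934 ± 15.1 CPM on p53-defective and 577 ± 10.5 CPM on control feeders (1.74 ± 0.07, adjusted p = 1.07e-15). In the interaction all 8 TRiC subunits had a lower effect in the co-culture under each of the 3 scalings, and 11 of 14 HSP90 co-chaperones did so with TMM factors and in TPM.

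With ATN161 against ES cells on control feeders 45 of 78 were higher and 17 lower, and with feeders removed 29 were higher and 21 lower, which without TMM factors became 22 and 27. All 14 HSP90 co-chaperones were higher with ATN161, and 10 of them in TPM with none lower. All 8 TRiC subunits were higher with ATN161, and 6 in TPM with none lower. With feeders removed 8 co-chaperones were higher and 1 lower, and 7 TRiC subunits were higher, 4 of them without TMM factors. Fkbp4, another HSP90 partner of steroid receptors, was higher by 0.60 ± 0.06 with ATN161 (adjusted p = 2.95e-08) and by 0.29 ± 0.06 with feeders removed (adjusted p = 0.000557). Other targets of HSF1 went the other way, with 2 higher and 5 lower with ATN161 and 1 higher and 5 lower with feeders removed. Ier5, an immediate early gene that is a target and a partner of HSF1, averaged 21.4 ± 1.74 CPM with ATN161, 46.6 ± 4.87 CPM with feeders removed and 103 ± 7.39 CPM in ES cells on control feeders. Serpinh1, which fibroblasts make at high level, averaged 204 ± 8.77 CPM with ATN161, 358 ± 26.5 CPM with feeders removed and 577 ± 10.5 CPM in ES cells on control feeders. Summed fibroblast markers were 799 to 887 CPM with ATN161, 3563 to 4066 CPM with feeders removed and 6026 to 6391 CPM in ES cells on control feeders, with 12 and 7 of 12 lower, and their part in these values was not tested.

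**Figure D5:**
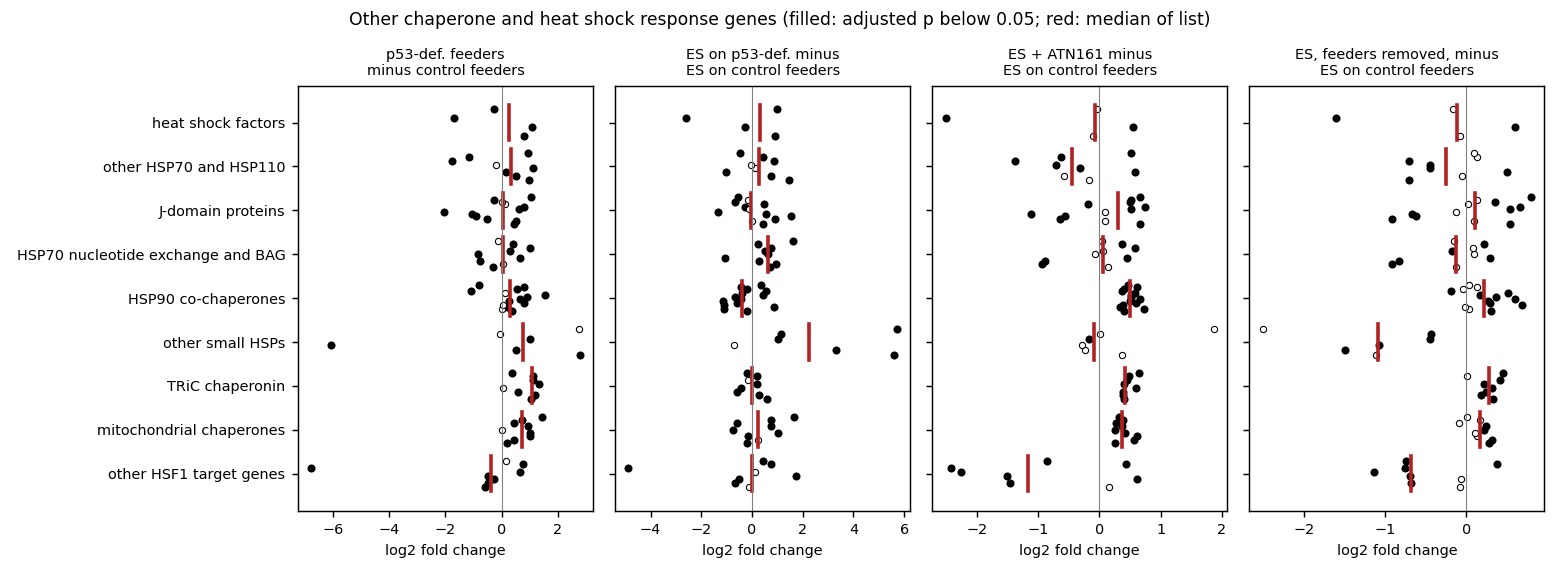
Log2 fold change (horizontal axis, each panel with its own range) of the 78 other chaperone and heat shock response genes by list in 4 comparisons, filled where the adjusted p was below 0.05, with the median of each list in red. HSP90 co-chaperones and TRiC subunits all lie to the right of 0 with ATN161, and other small heat shock proteins reach 5.61 for Hspb2 in ES cells on p53-defective feeders.

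Over the 18 libraries, which share groups and cell makeup, the members' log2 CPM are described by their correlation. Hspa8 and Hsp90aa1 had a Pearson r of 0.96, Hspb1 and Hsp90ab1 of 0.91, and Hspa1a and Hspa1b of 0.84, whereas Cryab ran against Hsph1 with -0.92 and against Hsp90aa1 with -0.84. Among 10188 other genes with a mean of at least 10 CPM, Hacd2 was most like Hspa8 (0.994), Cse1l most like Hsp90aa1 (0.992), Ppih most like Hsp90ab1 (0.992) and Hikeshi most like Hspb1 (0.989). Wbp1l was most like Cryab (0.989), Smarcad1 most like Hsph1 (0.988), Rbfox2 most like Hspa1b (0.967) and Zc3h14 most like Hspd1 (0.966). The lowest maxima were those of Hspa1a with Ccn1 (0.944) and of Dnajb1 with Mul1 (0.816).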

How the data were processed

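Messenger RNA of 18 libraries was sequenced after Trizol extraction and a TruSeq mRNA kit, per the labels' protocols. Per the submitters' processing notes the tools included StringTie 1.3.3b, HISAT2 2.1.0, DESeq2 1.2.10 and SAMtools 1.4, with no role stated, and the genome was GRCm38 (also mm10). Strandedness is not given in the sources used here. The authors deposited expected counts, that is estimated read counts without normalisation, and TPM for 75416 RefSeq transcripts. Of the other columns, 36 of single samples and 24 of averages were not used.

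The expected counts of a gene's transcripts were added, giving 19630 genes, and rounded, where 89.3% of sums were whole within 0.05. The filter filterByExpr kept 15389 genes. Tests were two-sided and used edgeR 4.0.16 (quasi-likelihood, R 4.3.3, TMM factors, robust, 18 libraries in 1 fit, Benjamini-Hochberg over all genes tested), and the procedure was tested on simulated data. Fold changes are log2 with the standard error (SE). The alternatives were DESeq2 1.42.0, its size factors, other filters, curated transcripts alone, the compared groups alone, each replicate left out and a replicate block. After seeing the data 2 more were added: library totals without TMM factors, and limma 3.58.1 on log2(TPM + 1) of the deposited TPM. Exact permutation of 3 against 3 libraries cannot go below p = 0.1, so the fit across genes was used.

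Library totals of 15.12 to 19.83 M counts put the members at 80 counts or more in each library. Replicates correlated at 0.9892 to 0.9953. Same-numbered replicates of compared groups showed correlations of their deviations of -0.07 to 0.22, above 0.1 for all 3 numbers in no pair of groups, so the numbers were not taken to pair the samples.

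The 10 members and all gene lists were chosen with earlier results of these data known, so no list is independent evidence. Named beside the members are up to 4 genes per list with the smallest p in a comparison, Trp53, Mdm2 and Cdkn1a as a check of the labels, genes that overlap a member, and the genes most like each member in log2 CPM (prior count 2). Promoter windows are from RefSeq on GRCm38.p6, and gene positions from RefSeq on GRCm38.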

Additional observations from a re-analysis of the deposited data

Results flagged for a closer look

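For 9 of the 10 genes the effect of the p53 label differed between the co-cultures and the feeders alone in a test of the difference itself, the interaction term of edgeR's quasi-likelihood test, with a log2 difference of effects (co-culture minus feeders alone) and its adjusted p. The value was 5.09 for Cryab (adjusted p = 4.01e-19). Those below 0 were -1.70 for Hsp90aa1 (adjusted p = 1.23e-10), -1.43 for Hspa1a (adjusted p = 5.64e-06), -1.21 for Hspd1 (adjusted p = 3.44e-08) and -1.10 for Hsph1 (adjusted p = 8.76e-08). They were -0.91 for Hspa1b (adjusted p = 0.000554), -0.88 for Hsp90ab1 (adjusted p = 4.91e-08), -0.87 for Hspa8 (adjusted p = 5.32e-08) and -0.66 for Hspb1 (adjusted p = 0.0356). The call of Hspb1 was lost in 9 of 22 alternatives, with -0.34 (adjusted p = 0.102) without replicate 3 of p53-defective feeders. The same test called 73.6% of all genes. In that test the effect was also higher in the co-culture for all 12 fibroblast, all 8 smooth muscle and all 10 macrophage markers, and lower for 11 of 12 immediate early genes and 3 of 12 ES cell markers. All 10 macrophage markers were lower in p53-defective than in control feeders. Between the co-cultures 2 of these were higher, 1 lower and 7 not called. Summed fibroblast markers were 4918 to 7479 CPM in p53-defective feeders, against 31250 to 38360 CPM in control feeders, and 15020 to 22620 CPM in ES cells on p53-defective feeders, against 6026 to 6391 CPM in ES cells on control feeders. The part of these markers in the differences was not tested.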

How the results depend on the processing

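Of 1773 recomputed values, the number of genes called stayed within 1.5 times in all 150 comparisons of counts, and the direction and call of members' fold changes held in 1359 of 1482. A call was lost in 66 and gained in 31, and the sign turned in 26, of which 2 results, Dnajb1 and Hsp90ab1 in ES cells on p53-defective feeders against those feeders alone, had been called. The number of members called stayed within 1.5 times in 138 of 141, and the other 3 were ATN161 against feeders removed, with 4 members in place of 7 with curated transcripts alone or without replicate 1 or 3 of feeders removed (range over left-out replicates 4 to 7). The cause was not tested. The numbers of replicates gave no pairing, and a replicate block called 12796 genes and 7 members between the co-cultures and 11384 genes and 6 members between the feeders, and left the number of members called as it was in each comparison.

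Scaling moved the co-culture on p53-defective feeders most. Against ES cells on control feeders 5638 genes were higher and 7191 lower with TMM factors, 4184 and 8817 without them, and 2966 and 10026 in TPM, and members called were 2 higher and 5 lower, 2 and 8, and 1 and 8. Against those feeders alone the split of all genes was 7187 higher and 5078 lower with TMM factors, 5863 and 6347 without, and 3300 and 8228 in TPM, with medians of 0.27, 0.00 and -0.30. For the interaction it was 5975 and 5352, 4554 and 6816, and 4015 and 8514. With ATN161 against ES cells on control feeders it was 5176 and 4307, 3799 and 5160, and 2445 and 5844, and against feeders removed 4406 and 4121, 3861 and 4430, and 2421 and 5231. With feeders removed against ES cells on control feeders it was 3924 and 4077, 3067 and 4885, and 3023 and 4664. Both of these scalings were chosen after seeing the data. The median between the co-cultures was -0.05 without a filter and -0.04 with the compared groups alone, and that against p53-defective feeders alone was 0.38 and 0.02.

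Signs turned as follows. Between the co-cultures Hsp90ab1 was at -0.30 without TMM factors, -0.63 in TPM and -0.03 to 0.18 with a replicate left out. Hspd1, at 0.00 in the fit reported, was at 0.10 without a filter, 0.01 with a filter of 5 CPM and with curated transcripts, 0.11 with the compared groups alone, and 0.04 to 0.11 in 5 fits without a replicate. Hspa1b was at -0.12 to 0.06 with a replicate left out. For ES cells on p53-defective feeders against those feeders alone Hspa8 was at -0.25 without TMM factors, -0.74 in TPM, -0.09 with the compared groups alone and -0.03 to 0.17 with a replicate left out, Dnajb1 at -0.05 and -0.51 without TMM factors and in TPM, and Hsp90ab1 at -0.45 in TPM. Hsph1 was at -0.05 in TPM and -0.01 to 0.15 with a replicate left out in p53-defective against control feeders, and at -0.04 in TPM for ES cells on control feeders against control feeders. In TPM Hspd1 was at -0.09 with ATN161 against feeders removed and Dnajb1 at -0.11 with feeders removed against control feeders. Hspb1 was at 0.00 with feeders removed against ES cells on control feeders without replicate 2 of feeders removed.

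At 15.12 to 19.83 M counts a library, counting error is small for the members with high counts. It is larger for the lowest values, as Hspa1a had 278 counts summed over the 3 libraries with ATN161, and Cryab had as few as 123 in a library. The spread between 3 libraries of unknown origin also limits the precision.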
